A study of Mus musculus with 25 samples.

Results

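The conjugating and detoxifying enzymes described here were 60 genes, of 18194 genes with a probe set of their own, chosen by symbol alone: 23 glutathione S-transferases (Gst and the membrane-bound Mgst), 13 sulfotransferases (Sult), 11 UDP-glucuronosyltransferases (Ugt) and 13 carboxylesterases (Ces). No measured value entered the choice. Their expression was measured in salivary gland RNA from male mice of the strain C57BL/6.NOD-Aec1Aec2 aged 4, 8, 12, 16 or 20 weeks, with 5 mice per age and 1 Affymetrix mouse genome array per mouse (25 arrays). These mice carry the NOD-derived intervals Aec1 (chromosome 3) and Aec2 (chromosome 1) on the C57BL/6 background and develop a disease like Sjögren's syndrome, in which immune cells enter the glands and saliva is lost. By the sample descriptions the glands were free of disease at 4 weeks and pre-clinical at 8 weeks, leukocytes first entered them at 12 weeks, clinical autoimmunity began at 16 weeks, and secretion was failing at 20 weeks. All 5 groups had the same genotype and sex, no agent was given, and the C57BL/6J mice of the study were not analysed here, so that growth of the gland and course of the disease cannot be told apart. By the methods of the study, 1 lobe each of the submandibular, sublingual and parotid glands was pooled per mouse, without their lymph nodes. Scores of lymph node and sublingual markers, given below, differed between mice of the same age. The RNA came from this pool, and in such bulk RNA fewer cells of a type and less RNA per cell cannot be told apart.

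Drugs, pollutants, steroids, bile pigments and the toxic products of lipid peroxidation are cleared from cells in steps. Carboxylesterases split ester bonds, and transferases then couple the product to glutathione, sulfate or glucuronic acid, which makes it soluble enough to be exported. The glutathione S-transferases also act on peroxides, and the sulfotransferases and glucuronosyltransferases inactivate steroid and thyroid hormones. These families are known best from the liver, while in the submandibular gland of male mice the granular ducts respond to androgen and produce growth factors and kallikreins.

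All values are log2 expression values, and a gene value is the mean over its expressed probe sets. Expressed means here that the mean of a probe set over the 25 arrays was above 3.27, the median of all probe sets. By this measure 33 of the 60 members (55%) had an expressed probe set, against 64.3% of all genes: 18 of 23 Gst and Mgst genes, 7 of 13 Sult, 2 of 11 Ugt and 6 of 13 Ces genes. The other 27 members differed from their 4-week means by at most 0.29 at any age. Genes of these families often lie side by side. All 13 Ces members are on chromosome 8, 8 of 11 Ugt members on chromosome 5 and 8 of 23 Gst and Mgst members on chromosome 3. Of the last, Mgst2 lies far from the Gstm genes. Transcripts of related neighbours are alike, so that probes may bind more than 1 of them.

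The array of mouse 3 at 20 weeks stood apart from all others. Its median correlation with the arrays of its age was 0.887, while no other array was below 0.973, and its Gapdh signal was 3.87 log2 units stronger at the 3′ than at the 5′ probe set, where the other arrays had 0.05 to 1.68. Its score of 8 duct markers (mean log2 value) was 7.01, the lowest of the 25 mice, and its score of 5 parotid acinar markers was 13.08. Its scores of 4 sublingual acinar markers (7.284) and 5 fibroblast markers (6.285) were the lowest of its age. Those of 11 immune markers (5.297) and 3 lymph node markers (4.733) were the highest of its age. The median of the whole array (3.641) was the highest of the 25, and its upper quartile (5.188) was the lowest. Of the 33 expressed members 11 had their lowest value on this array and 7 their highest, and of the 27 others 23 had their highest value there. Shares of all genes were not computed for these counts, which cannot be read as results about the members. It was kept in the main values, and values without it stand beside the 20-week differences reported for single members where it turned or moved them by over 1.5 times.

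Against 4 weeks the members that passed the test with all arrays and no covariate were higher. In limma with adjustment over all 18194 genes, 3 of 60 members passed as higher at 8 weeks (1.48% of all genes), 6 at 12 weeks (5.66%), 3 at 16 weeks (1.71%) and 1 at 20 weeks (1.14%). Those called were Ces1e at all 4 ages, Gsto1 and Sult1c1 at 8, 12 and 16 weeks, and Gsta2, Gsta4 and Gstk1 at 12 weeks. Among genes with an expressed probe set the shares of all genes were 2.29%, 8.63%, 2.65% and 1.76%. As lower, 0 members passed at each age, where 0.78%, 1.36%, 1.68% and 1.52% of all genes did. With shares this small, 0 of 60 is near the share of all genes. The same holds for the 1 of 60 (1.67%) that was higher at 20 weeks. At an unadjusted p under 0.05 there were 2, 3, 3 and 2 members on the lower side and 8, 12, 8 and 5 on the higher side. Shares of all genes at this unadjusted cut-off were not computed. Counts at it, here and below, cannot be read as results about the members or the gene lists. The 4 comparisons share the mice of 4 weeks. A moderated F-test over the 5 ages was passed by Ces1e, Gsto1 and Sult1c1 (4.66% of all genes passed), and the B-statistic exceeded 1.5 for Gsto1 (2.25) and Ces1e (1.71), as it did for 1.92% of all genes.

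**Figure D1:**
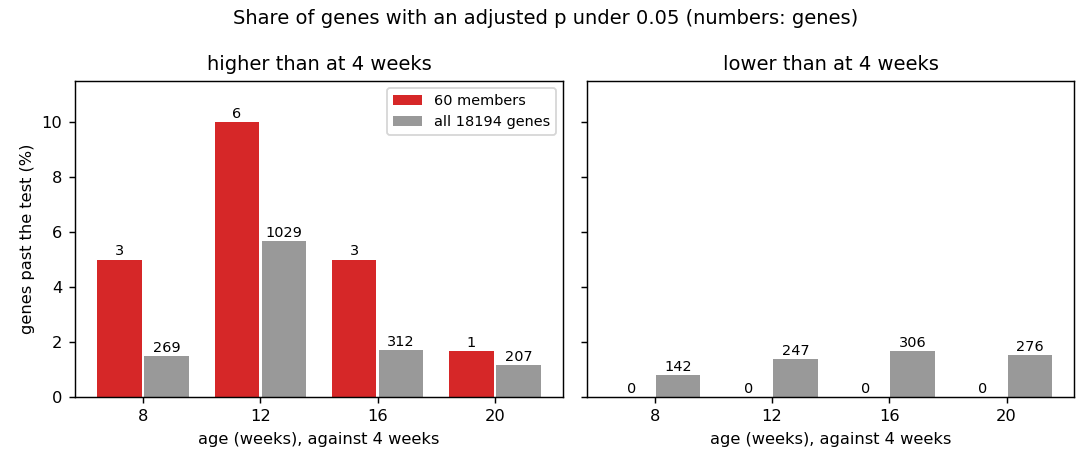
Share of the 60 members (red) and of all 18194 genes (grey) with an adjusted p under 0.05 at each age against 4 weeks (x axis, weeks), higher on the left and lower on the right, in percent, with the number of genes on each bar. Members were called as higher at all 4 ages, 6 of them at 12 weeks, and 0 as lower, which is near the small shares of all genes on that side.

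The median of the expressed members differed most from that of all expressed genes at 12 weeks. Over the 33 expressed members the median log2 difference from 4 weeks was 0.06, 0.33, 0.01 and 0.06 at 8, 12, 16 and 20 weeks, where all genes with an expressed probe set had 0.10, 0.14, 0.02 and 0.06. At 12 weeks 21 of the 33 lay above their 4-week mean, against 62% of expressed genes.

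The promoters of Ces1e, Gsto1 and Sult1c1, the members that passed at 3 or 4 ages, are shown because these genes moved from the same age on. The sequences are the 250 bases before the transcript start of the RefSeq promoter table (GRCm38.p6), 5′ to 3′ on the strand of the gene, with matches to the searched motifs in capitals. For Ces1e the last 12 of these bases lie within the gene as RefSeq annotates it, and for the other genes 0 do. Ces1e lies on the minus strand (chr8:93229620-93229869), Gsto1 on the plus strand (chr19:47854723-47854972) and Sult1c1 on the minus strand (chr17:53990632-53990881).
Ces1e: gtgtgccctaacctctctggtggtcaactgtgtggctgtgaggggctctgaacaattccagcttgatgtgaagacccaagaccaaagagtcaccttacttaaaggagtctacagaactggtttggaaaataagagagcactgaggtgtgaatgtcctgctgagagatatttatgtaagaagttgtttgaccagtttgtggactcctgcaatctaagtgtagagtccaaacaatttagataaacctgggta
Gsto1: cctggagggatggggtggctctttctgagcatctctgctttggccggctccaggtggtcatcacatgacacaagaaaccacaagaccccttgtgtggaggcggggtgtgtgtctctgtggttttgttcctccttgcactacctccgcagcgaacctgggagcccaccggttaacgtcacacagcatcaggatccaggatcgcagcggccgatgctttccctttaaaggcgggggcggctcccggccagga
Sult1c1: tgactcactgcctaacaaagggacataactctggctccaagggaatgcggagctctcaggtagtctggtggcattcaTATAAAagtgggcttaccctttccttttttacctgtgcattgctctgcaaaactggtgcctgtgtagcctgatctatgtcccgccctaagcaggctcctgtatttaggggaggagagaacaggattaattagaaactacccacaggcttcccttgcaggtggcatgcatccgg
The motifs searched on both strands were the core of the antioxidant response element (TGACNNNGC), the core of the xenobiotic response element (GCGTG) and the TATA box (TATAAA). Of these 3 promoters only that of Sult1c1 held a match, a TATAAA that lies 173 to 168 bases before the start. Among the 52 members with a promoter in the table, 3 (5.77%) held TGACNNNGC, 8 (15.4%) held GCGTG and 8 (15.4%) held TATAAA, against 10.1%, 28.2% and 13% of 27025 genes.

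Sult1c1, a cytosolic sulfotransferase, had the widest gap between ages among the members. Its values at 4 weeks were 6.57, 3.33, 3.33, 4.16 and 5.20 for mice 1 to 5. At 8 weeks they were 7.26, 7.31, 7.27, 7.0 and 7.69, at 12 weeks 7.66, 8.23, 7.57, 8.51 and 8.06, and at 16 weeks 7.55, 6.44, 7.30, 7.12 and 6.94. All mice of 8 and 12 weeks lay above all mice of 4 weeks, of which mice 2 and 3 were close to the limit of 3.27 that marks an expressed probe set, and at 16 weeks mouse 2 overlapped the highest 4-week mouse. The values at 20 weeks were 7.58, 7.10, 3.09, 7.34 and 7.86, so that 4 mice lay above the 4-week range and mouse 3 below it. The mean rose from 4.52 ± 1.38 at 4 weeks to 7.31 ± 0.25 at 8 weeks and 8.01 ± 0.39 at 12 weeks (SD, n = 5), a log2 fold change of 3.49 ± 0.68 (SE) at 12 weeks or 11.2-fold (adjusted p = 0.00384). It was 2.79 at 8 weeks (adjusted p = 0.0321) and 2.55 at 16 weeks (adjusted p = 0.0401). At 20 weeks the log2 fold change was 2.07 (adjusted p = 0.125), and without mouse 3 it was 2.95 and passed (adjusted p = 0.000508).

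Gsto1, an omega-class glutathione transferase that reduces dehydroascorbate and methylated arsenic, showed the same order of ages. Its values were 11.92, 11.18, 10.69, 9.95 and 11.60 at 4 weeks and 12.63, 12.82, 12.47, 12.40 and 12.61 at 8 weeks. They were 12.82, 13.06, 12.77, 12.81 and 12.62 at 12 weeks and 12.73, 12.20, 12.51, 12.45 and 12.94 at 16 weeks. Every mouse of 8, 12 and 16 weeks was above every mouse of 4 weeks, and the 4-week mice spread more widely (SD 0.78) than those of 12 weeks (0.16). At 20 weeks the values were 12.72, 12.44, 10.58, 12.23 and 12.37, with mouse 3 within the 4-week range. The log2 fold changes were 1.52 ± 0.33 at 8 weeks (adjusted p = 0.0166), 1.75 at 12 weeks (adjusted p = 0.00307), 1.5 at 16 weeks (adjusted p = 0.0127) and 1.00 at 20 weeks (adjusted p = 0.128), the last 1.37 without mouse 3 (adjusted p = 0.003). Its 2 probe sets gave 1.96 and 1.54 at 12 weeks, and both passed there in limma with adjustment over all probe sets (adjusted p = 0.019 and 0.000568). With all arrays the second also passed at 8, 16 and 20 weeks (1.404, 1.384 and 1.055, adjusted p = 0.00235, 0.0017 and 0.0195). The first did not pass at these ages (adjusted p = 0.098, 0.0825 and 0.51).

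Ces1e, a carboxylesterase of the endoplasmic reticulum, was the member that passed at all 4 ages. Its values were 5.95, 6.24, 6.30, 6.25 and 6.77 at 4 weeks, 6.80, 6.81, 7.26, 7.55 and 7.62 at 8 weeks, and 6.90, 7.80, 7.33, 7.69 and 8.00 at 12 weeks. They were 7.91, 7.23, 7.71, 7.70 and 7.54 at 16 weeks and 7.52, 7.15, 6.70, 7.52 and 7.68 at 20 weeks. No mouse of 8, 12 or 16 weeks overlapped those of 4 weeks, and at 20 weeks mouse 3 did. The log2 fold changes were 0.90 ± 0.22 (adjusted p = 0.0323), 1.24 (adjusted p = 0.00193), 1.31 (adjusted p = 0.00136) and 1.01 (adjusted p = 0.0131), which are 1.87-fold, 2.36-fold, 2.48-fold and 2.02-fold. The call at 8 weeks was lost when any of mice 1 to 4 of 4 weeks or mice 3 to 5 of 8 weeks was left out, and those at 12, 16 and 20 weeks held without each mouse in turn.

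**Figure D2:**
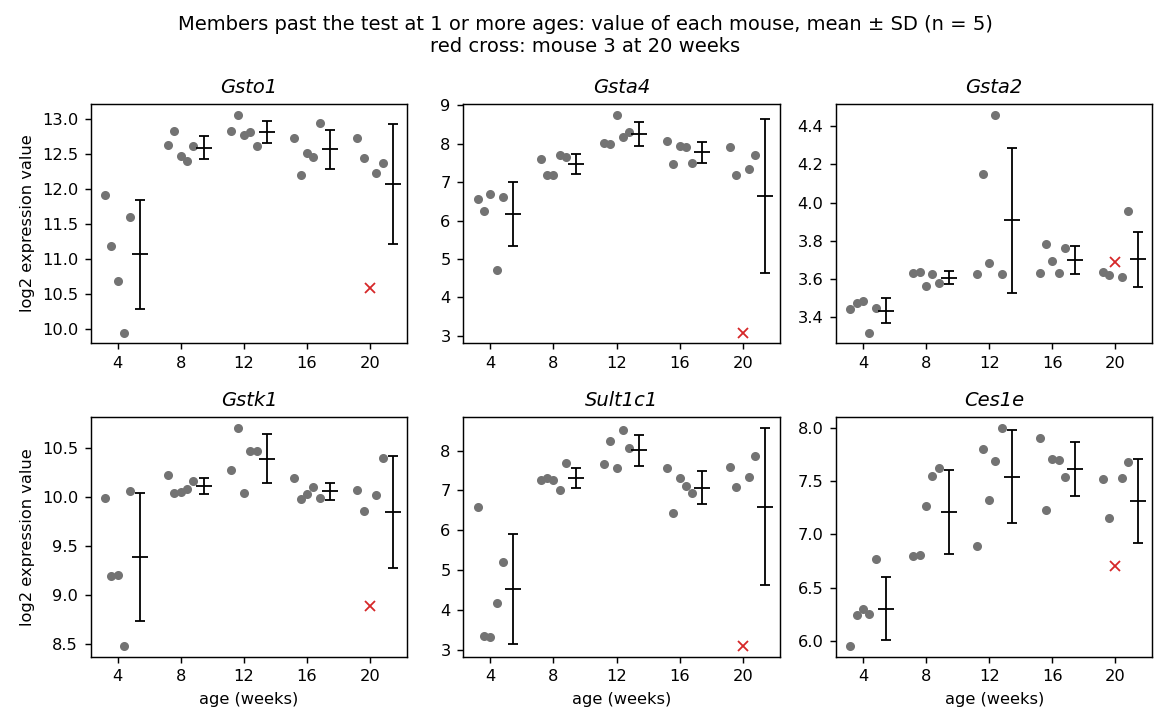
Log2 expression value (y axis) of each mouse at each age (x axis, weeks) for the 6 members that passed the test at 1 or more ages, with the mean and SD of 5 mice to the right of the points and mouse 3 of 20 weeks as a red cross. For Gsto1, Gsta4, Gsta2, Sult1c1 and Ces1e every mouse of 8 and 12 weeks lay above every mouse of 4 weeks, and mouse 3 of 20 weeks was the lowest of its age for each gene shown but Gsta2.

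Among the alpha-class glutathione transferases, Gsta4 and Gsta2 rose at 12 weeks. Gsta4, which conjugates 4-hydroxynonenal, a product of lipid peroxidation, had values of 6.57, 6.26, 6.70, 4.71 and 6.61 at 4 weeks and 8.02, 8.01, 8.76, 8.18 and 8.30 at 12 weeks. The mice of 8 weeks lay between 7.19 and 7.71 and those of 16 weeks between 7.48 and 8.07, so that none of these ages overlapped 4 weeks. At 20 weeks mouse 3 was at 3.08 and the other mice between 7.17 and 7.91. The log2 fold change of Gsta4 was 2.08 ± 0.61 at 12 weeks, or 4.24-fold (adjusted p = 0.0416), and 1.30, 1.61 and 0.47 at 8, 16 and 20 weeks (adjusted p = 0.34, 0.185 and 0.815). The call at 12 weeks was lost under 4 of 7 other settings and without any of 14 of the 25 arrays. Without mouse 3 of 20 weeks Gsta4 passed at all 4 ages, with 1.36 at 20 weeks (adjusted p = 0.00771). Gsta2 had values of 3.32 to 3.49 at 4 weeks and of 3.62, 4.15, 3.68, 4.46 and 3.62 at 12 weeks, close to the limit of 3.27, and its log2 fold change was 0.48 ± 0.12 (adjusted p = 0.0162). That call was lost without mouse 4 of 4 weeks or mouse 2 of 12 weeks. A probe set shared by Gsta2, Gsta1 and Gm3776 had a higher mean over all arrays (4.32 against 3.67). Its log2 fold change was 0.08 at 12 weeks (adjusted p = 0.71 in limma over all probe sets). Gsta3, named after its values were seen, was at 0.70 at 12 weeks (adjusted p = 0.107), and its 2 probe sets differed there (1.35 and 0.05).

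Gstk1, the kappa-class transferase of mitochondria and peroxisomes, was the other transferase to rise. Its values were 9.99, 9.19, 9.20, 8.48 and 10.06 at 4 weeks and 10.28, 10.70, 10.03, 10.46 and 10.47 at 12 weeks, and the age groups overlapped at mouse 5 of 4 weeks. The log2 fold change was 1.01 ± 0.25 at 12 weeks (adjusted p = 0.0178), lost without mouse 4 of 4 weeks or mouse 2 of 12 weeks, and 0.73, 0.67 and 0.46 at 8, 16 and 20 weeks (adjusted p = 0.145, 0.174 and 0.508), the last 0.70 without mouse 3 (adjusted p = 0.0508).

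The mu-class, pi-class and membrane-bound transferases did not pass at any age. Gstm1, a mu-class enzyme whose human counterpart is often deleted, had values of 8.42, 8.38, 8.54, 7.72 and 8.52 at 4 weeks and of 8.76, 8.88, 9.78, 8.75 and 8.93 at 12 weeks. These groups did not overlap, and the log2 fold change was 0.71 ± 0.29 (adjusted p = 0.146). Without mouse 3 of 20 weeks, whose Gstm1 value was 6.60, the same difference passed (adjusted p = 0.0146). Gstp1, the pi-class enzyme of many epithelia, had log2 fold changes of 0.08, 0.39, 0.21 and -0.05 over the 4 ages, and Mgst1, a membrane-bound enzyme that reduces lipid peroxides, 0.30, 0.72, 0.22 and -0.01. The 20-week differences without mouse 3 were 0.08 for Gstp1 and 0.44 for Mgst1 (adjusted p = 0.822 and 0.139), and Mgst1 passed at 12 weeks (adjusted p = 0.00588).

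A theta-class enzyme had lower values than at 4 weeks at 3 ages without passing the test. Gstt3, named after its values were seen, had values of 7.90, 8.34, 8.41, 8.02 and 7.80 at 4 weeks, 7.34, 7.40, 7.37, 7.53 and 7.56 at 8 weeks, and 7.50, 6.29, 7.03, 7.12 and 7.14 at 16 weeks. At 12 weeks it lay between 7.63 and 8.28 and overlapped 4 weeks, while no mouse of 8 or 16 weeks did. At 20 weeks mouse 3 was at 4.98 and the other mice between 7.12 and 7.80. The log2 fold changes were -0.65, -0.14, -1.08 and -1.10 (adjusted p = 0.446, 0.801, 0.113 and 0.116). Without mouse 3 of 20 weeks Gstt3 fell by 0.65 at 8 weeks (adjusted p = 0.037) and by 1.08 at 16 weeks (adjusted p = 0.00106), while the 20-week difference shrank to -0.60 and did not pass (adjusted p = 0.0605).

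Among the other sulfotransferases, Sult1a1, which sulfates phenols, had values of 6.96, 6.43, 7.17, 7.10 and 7.15 at 4 weeks and of 7.64, 7.51, 7.22, 7.41 and 7.91 at 12 weeks, which did not overlap. Its log2 fold change at 12 weeks was 0.58 ± 0.18, just short of the threshold (adjusted p = 0.0553), and passed without mouse 3 of 20 weeks (adjusted p = 0.033). Sult1e1, the estrogen sulfotransferase, varied widely between mice of the same age, from 8.76 to 10.73 at 4 weeks, 9.61 to 11.28 at 12 weeks and 8.66 to 10.23 at 16 weeks. At 20 weeks mouse 3 was at 3.88 and the other mice between 9.84 and 10.74, and none of the log2 fold changes of 0.83, 0.82, -0.37 and -0.71 passed (adjusted p = 0.703, 0.62, 0.926 and 0.808). Without mouse 3 the 20-week difference of Sult1e1 turned to 0.56 (adjusted p = 0.47). Sult6b1 had log2 fold changes of -0.15, -0.12, -0.27 and 0.28, with mouse 3 of 20 weeks at 6.53 and all other mice between 4.43 and 5.59, and without mouse 3 its 20-week difference turned to -0.07 (adjusted p = 0.832).

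Of the glucuronosyltransferases, 9 of 11 were not expressed by the measure used. Ugt8a, the galactosyltransferase that makes galactosylceramide, was at 5.71 ± 0.64 at 4 weeks, with log2 fold changes of 0.36, -0.27, -0.50 and -0.25 that did not pass (adjusted p = 0.703, 0.656, 0.596 and 0.823), the last -0.13 without mouse 3. Ugt2b36, Ugt2b35 and Ugt3a2 had 4-week means of 3.35, 2.94 and 3.24 and no call at any age. The classical Ugt1a genes share their last exons, and the array annotation gives their 3 probe sets to 8 genes at once, so that they are not members here.

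Ces1d, a carboxylesterase that hydrolyses triglyceride and the neighbour of Ces1e on chromosome 8, followed a like course to 16 weeks. Its gene value did not pass the test with all arrays. Its values were 8.32, 8.31, 9.14, 8.13 and 8.6 at 4 weeks, 9.35, 9.22, 9.55, 9.56 and 9.72 at 8 weeks, and 9.92, 9.47, 9.59, 9.62 and 9.64 at 16 weeks, and those of 12 weeks lay between 9.37 and 9.84. None of these 3 ages overlapped 4 weeks, and at 20 weeks mouse 3 was at 6.65 and the other mice between 9.0 and 9.48. With all arrays the log2 fold changes of its gene value were 0.98, 0.99, 1.15 and 0.20 (adjusted p = 0.159, 0.0899, 0.077 and 0.857). Its 3 probe sets were also tested singly in limma, with all arrays and adjustment over all probe sets. Of these, 1 passed at 12 weeks (1.24, adjusted p = 0.0327) and at 16 weeks (1.47, adjusted p = 0.0169). Another passed at 16 weeks (0.996, adjusted p = 0.0354), and the last passed at no age. Without mouse 3 of 20 weeks Ces1d rose at all 4 ages, with 0.98, 0.99, 1.15 and 0.71 (adjusted p = 0.000785, 0.000335, 0.000103 and 0.00944). Ces1f and Ces1g, which lie next to Ces1e on its other side, were not expressed by the measure used.

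Ces5a and Ces2f had other courses. Ces5a had values of 7.08, 6.31, 6.36, 5.84 and 6.47 at 4 weeks and of 7.50, 7.44, 6.35, 7.50 and 7.63 at 20 weeks, where every mouse but mouse 3 lay above 4 weeks. The log2 fold change was 0.87 ± 0.26 at 20 weeks (adjusted p = 0.0835) and 1.11 without mouse 3 (adjusted p = 0.00673), beside 0.27, -0.00 and 0.09 at 8, 12 and 16 weeks with all arrays. Of its 2 expressed probe sets 1 carried this difference (1.71) and the other did not (0.04). Ces2f had log2 fold changes of -0.11, -0.02, 0.26 and 0.67, and at 20 weeks mouse 3 was at 7.37. Without that mouse its 20-week difference was 0.14 (adjusted p = 0.793).

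**Figure D3:**
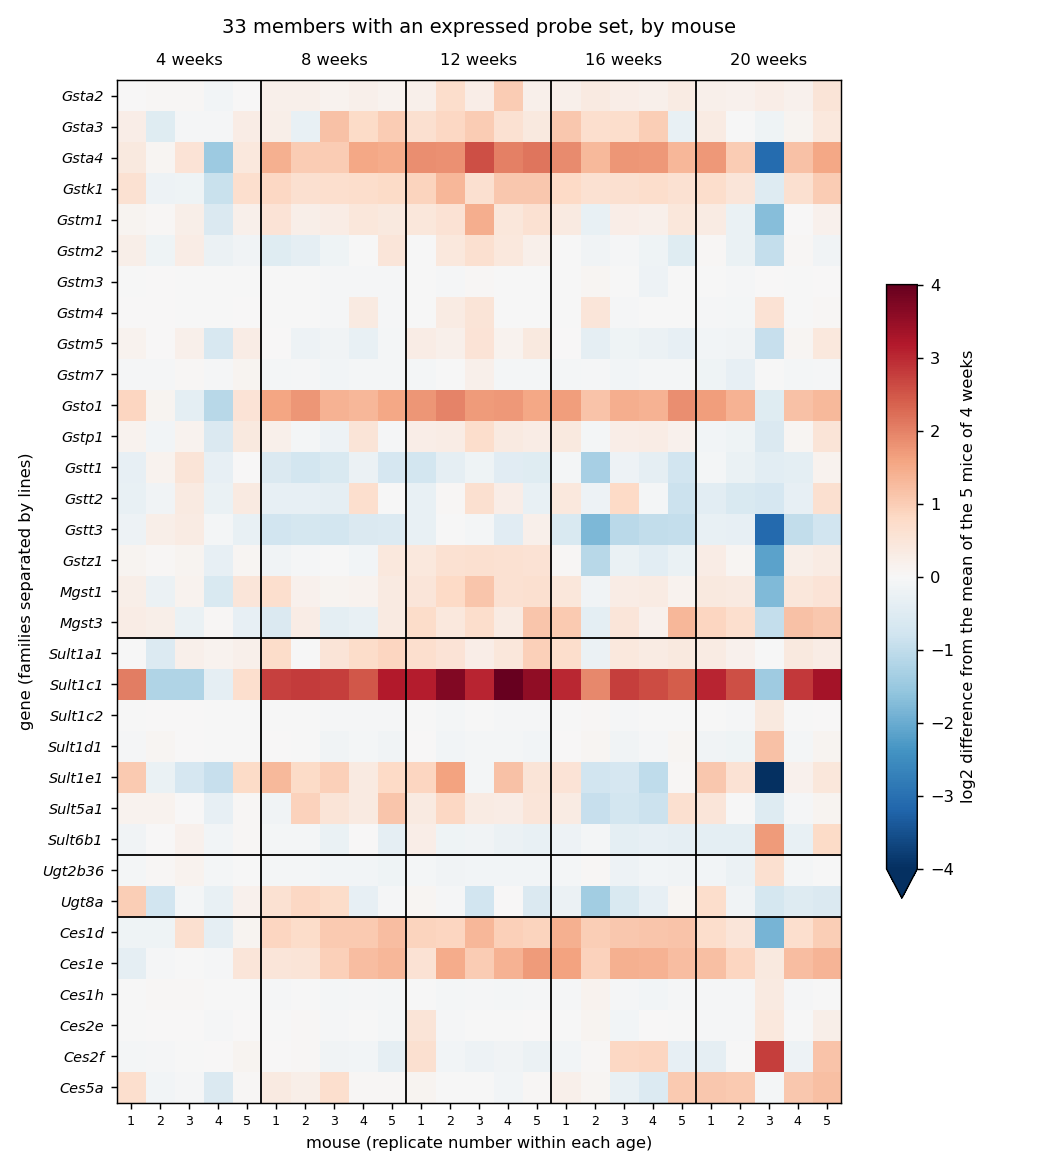
Difference of each mouse from the mean of the 5 mice of 4 weeks (log2, colour, with the scale ending at -4 and 4) for the 33 members with an expressed probe set (rows, families separated by lines) and the 25 mice (columns, by age). Red rows from 8 weeks on are Gsta4, Gstk1, Gsto1, Sult1c1, Ces1d and Ces1e. The rows in which mouse 3 of 20 weeks is blue include Gsta4, Gstm1, Gstt3, Gstz1, Mgst1, Sult1c1, Sult1e1 and Ces1d, with Sult1e1 beyond the scale.

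Values that did not overlap between ages were more frequent than calls. All 5 mice lay above all 5 mice of 4 weeks for 7 members at 8 weeks (4.58% of all genes), 12 at 12 weeks (12.5%), 5 at 16 weeks (2.22%) and 1 at 20 weeks (1.22%). They lay below them for 3 members at 8 weeks (4.05%), 13 at 12 weeks (21.1%), 1 at 16 weeks (2.16%) and 1 at 20 weeks (1.35%). At 16 and 20 weeks the lower member was Gstt3, and at 20 weeks the higher member was Gsta2. Of the 12 higher members of 12 weeks all had an expressed probe set, in which class 19.2% of genes were separated in this way. Of the 13 lower ones 2 were expressed, Sult1c2 and Ugt2b36, and these were at most 0.11 below 4 weeks.

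From 8 weeks on, no member passed the test between neighbouring ages. In limma the counts were 0 for 12 against 8, 16 against 12 and 20 against 16 weeks. An unadjusted p under 0.05, for which no share of all genes was computed, was found for 4, 5 and 2 members. Of all genes 0.0055%, 0% and 0.011% passed as higher at the later age and 0%, 0.0055% and 0.0165% as lower. The values from 12 to 16 weeks pointed down, with 25 of the 33 expressed members lower at 16 weeks and a median difference of -0.16, where 29.3% of expressed genes were higher and the median was -0.13. Between 8 and 12 weeks 3 members were separated upward (2.31% of all genes) and 0 downward (0.704%), and between 16 and 20 weeks 0 in either direction (0.385% and 0.269%). In 6 members, and upward in 0 (0.555%), every mouse of 16 weeks lay below every mouse of 12 weeks, where 2.83% of all genes did so: Gstm2, Gstm5, Gstt3, Gstz1, Mgst1 and Sult1c1, of which Gstm2, Gstm5 and Gstz1 are named here after their values were seen. Gstz1, an enzyme of tyrosine breakdown, was between 7.28 and 7.49 at 12 weeks and at 6.90, 5.72, 6.58, 6.41 and 6.58 at 16 weeks. Its difference of -0.98 had an adjusted p of 0.465, and of 0.0282 without mouse 3 of 20 weeks.

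Without mouse 3 of 20 weeks more members were called at every age, and so were more genes in all. Then 6, 11, 5 and 7 members were higher than at 4 weeks at 8, 12, 16 and 20 weeks, beside 5.14%, 13.3%, 4.11% and 6.23% of all genes. The 7 at 20 weeks were Ces1d, Ces1e, Ces5a, Gsta4, Gsto1, Mgst3 and Sult1c1. As lower, 1, 1, 1 and 0 members passed, Gstt3 at 8 and 16 weeks and Ugt2b38 at 12 weeks, beside 1.68%, 3.29%, 3.23% and 2.65% of all genes. Ugt2b38 is not expressed by the measure used.

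**Figure D4:**
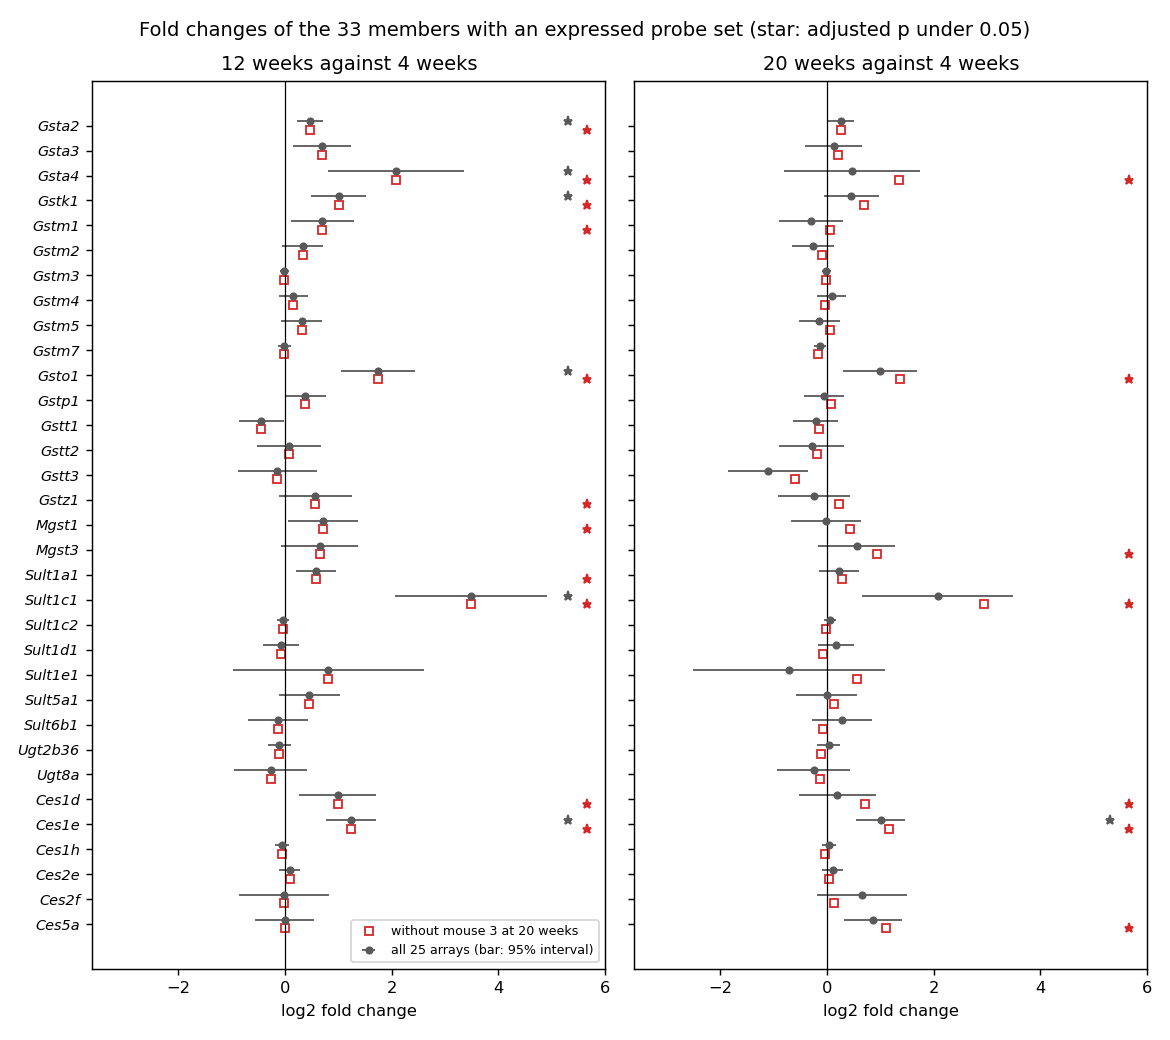
Log2 fold change against 4 weeks (x axis) of the 33 members with an expressed probe set at 12 weeks (left) and 20 weeks (right), with the 95% interval from all 25 arrays (grey) and the value without mouse 3 of 20 weeks (red squares), with stars for an adjusted p under 0.05. At 12 weeks the values are the same in both fits and more members have a red star, and at 20 weeks Gsta4 moves from 0.47 to 1.36 and Sult1c1 from 2.07 to 2.95.

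Calls among the other genes of the same pathways are to be read beside those of all genes, of which 1.48%, 5.66%, 1.71% and 1.14% were higher and 0.78%, 1.36%, 1.68% and 1.52% lower over the 4 ages from 8 to 20 weeks. Of 20 measured genes of glutathione supply and redox, 0, 1, 1 and 1 were higher and 1, 0, 0 and 1 lower. These counts, without mouse 3 of 20 weeks, were 3, 5, 2 and 2 higher and 1, 0, 0 and 1 lower, where 5.14%, 13.3%, 4.11% and 6.23% of all genes were higher. Srxn1, a sulfiredoxin that repairs peroxiredoxins, rose by 0.72 at 12 weeks (adjusted p = 0.00138). Chac1, which degrades glutathione, fell by 2.29 at 8 weeks (adjusted p = 0.022) and by 3.96 at 20 weeks (adjusted p = 0.00011). None of 10 genes that supply the sulfate and glucuronic acid donors passed in limma with all arrays (1, 2, 0 and 1 had an unadjusted p under 0.05), and 1, 3, 0 and 2 were higher without mouse 3 of 20 weeks. Of 7 deconjugating enzymes Sulf2, an extracellular sulfatase, fell by 0.60 at 16 weeks and by 0.63 at 20 weeks (adjusted p = 0.0302 and 0.0259).

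Of 10 exporters of conjugates Abcc1, a pump of glutathione conjugates, was called, higher at 12 weeks (0.85, adjusted p = 0.0114), and of 9 methyl and acetyl transferases As3mt, an arsenic methyltransferase, was higher at 12 weeks (1.37, adjusted p = 0.00842). Of 28 genes of the oxidation step 2, 2, 1 and 0 were higher and 0, 0, 1 and 1 lower, and without mouse 3 of 20 weeks 2, 5, 1 and 1 were higher and 0, 1, 2 and 1 lower. Cyp2b10, a cytochrome P450 of drug metabolism, rose by 1.85, 2.20 and 2.13 at 8, 12 and 16 weeks, while Fmo1, a flavin monooxygenase, fell by 1.27 at 16 weeks and 1.72 at 20 weeks. Of 16 regulators of such genes Nfe2l1, a transcription factor related to Nrf2, rose at 12 weeks (1.26, adjusted p = 0.0409), and without mouse 3 of 20 weeks 1, 3, 1 and 1 of the list were higher.

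Markers of the cell types of the gland moved between mice as well. The score of 8 duct markers was 9.60, 9.50, 9.24, 8.09 and 9.58 for the mice of 4 weeks and lay between 9.42 and 9.76 at 8 weeks and between 9.62 and 9.85 at 12 weeks, and 0 of the 8 markers passed in limma at these ages, with an unadjusted p under 0.05 for 0 and 4 of them, and 4 were higher at 12 weeks without mouse 3 of 20 weeks. Mouse 4 of 4 weeks had the lowest value of Gsto1, Gsta2, Gsta4, Gstk1 and Gstm1 at its age, but not of Sult1c1 or Ces1e. Among other expressed members it was also the lowest for Gstp1, Mgst1, Sult1e1, Ces1d and Ces5a. For Sult1a1, Gstt3 and Ugt8a it was not the lowest. It had the lowest duct score and the highest parotid score (13.20) of these mice. Its array also had the lowest upper quartile (5.343) and the lowest median correlation with its age (0.985) of the 4-week arrays. The part of these measures in its values was not tested. The parotid score spanned 8.29 to 13.20 at 4 weeks and 7.52 to 11.88 at 12 weeks, with 0 of 5 markers called in limma and 1 at an unadjusted p under 0.05 at 12 weeks. With this score as a covariate 2, 6, 2 and 1 members were higher, and Sult1c1, Gsto1 and Ces1e passed at 12 weeks. The shares of all genes with this covariate were not computed. The score of 9 granular duct markers was 15.25, 15.01, 14.77, 14.50 and 15.21 for the mice of 4 weeks, with mouse 4 the lowest of all 25, and lay between 15.19 and 15.30 at 8 weeks and between 15.16 and 15.30 at 12 weeks. Over the 4 later ages 7, 7, 5 and 7 of these markers had an unadjusted p under 0.05. In limma the kallikreins Klk1b16 (0.36) and Klk1b5 (0.45) rose at 12 weeks, and Klk1 fell by 0.29 at 12 weeks, by 0.41 at 16 weeks and by 0.43 at 20 weeks. When mouse 3 of 20 weeks was left out, 4, 5, 2 and 2 of the 9 were higher and 0, 1, 1 and 1 lower. Of 4 measured markers of dividing cells 3 fell at every age (Cdk1 by 3.04 at 8 weeks), and of 5 fibroblast markers 2, 3, 3 and 2 fell. The score of 3 lymph node markers spanned 2.96 to 4.80 at 4 weeks and 2.79 to 5.68 at 16 weeks. At 16 weeks the score of 11 immune markers spanned 3.97 to 6.41, and that of 4 sublingual markers 5.27 to 10.19. With all arrays 0 of the lymph node and immune markers passed in limma, and 1 sublingual marker fell at 16 and 20 weeks. The part of the duct, granular duct, sublingual, immune, lymph node, dividing cell and fibroblast markers in the results of the members was not tested.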

How the data were processed

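RNA of the salivary glands of 25 male mice, 5 at each of 5 ages, had been hybridized to Affymetrix arrays. The authors deposited log2 values, 1 per probe set and array (45101 probe sets). Their methods name GCRMA and the submitters' processing notes RMA (with no version in the sources used here), so which of them made these values is unknown. The values were used as deposited, and array medians lay between 3.17 and 3.64. The annotation lists 35890 probe sets, and 34958 with a single symbol were averaged to 18194 genes over expressed probe sets, or over all where none was expressed. The 932 with several symbols, 6 of them of these families, and 9211 unlisted ones were left out. In place of depth, 5 arrays per age and their signal over background limit the precision.

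The 25 arrays entered 1 fit with limma 3.58.1 (R 4.3.3) that had no covariate. Two-sided contrasts compared each age with 4 weeks and with the next, and p-values of a contrast were adjusted by Benjamini-Hochberg over all genes. The F-test and the B-statistic (prior share 0.01) came from orthogonal polynomials of age up to degree 4. Passed, rose, fell and called mean an adjusted p under 0.05. The members and the gene lists were chosen with earlier results of these data known. Members named are those past a test, the 4 of highest mean log2 value in each family, and Gstm1, with others marked. Of each pathway list up to 4 genes of smallest adjusted p could be named. Replicates are separate mice. The labels do not say whether their numbers mark a litter or batch, and 15 of 50 same-numbered pairs correlated above 0.1, so the main fit has no block. By the paper the mice of each age came from more than 1 litter. Which mice were littermates is not given, so litter could not enter the fit. The fit was tested on simulated data. Alternatives were all probe sets averaged, only genes with an expressed probe set, quantile normalization, array weights, a replicate block, the parotid marker score or the upper quartile as a covariate, a prior share of 0.05, and each array left out in turn. Promoters came from RefSeq, and figures were drawn with matplotlib 3.10.9 (Python 3.11.15).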

Additional observations from a re-analysis of the deposited data

Results flagged for a closer look

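The values of 19 named members were examined in each age group for a mouse whose distance from its nearest neighbour made up most of the range of its group, a criterion that chance meets in about 1 of 20 groups. Of 95 groups of 5 mice 20 met it, and in 9 of them the mouse was mouse 3 of 20 weeks. It was the lowest of its age for Mgst1 (8.28 against 10.41 for the nearest mouse, 0.923 of the range), Sult1e1 (0.868), Ces5a (0.857), Gsta4 (0.847), Sult1c1 (0.84), Ces1d (0.83) and Gsto1 (0.77). It was the highest for Ugt3a2 (4.59 against 3.18, 0.931 of the range) and Ugt2b36 (0.769). The same array had the lowest correlation with its age and the widest gap between 3′ and 5′ probe sets of Gapdh and actin (5.36 for actin), and the part of these measures in the values of the members was not tested.

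Mouse 4 of 4 weeks was the lowest of its age for Gstm1 (7.72 against 8.38, 0.8 of the range), Gsta4 (4.71 against 6.26, 0.777) and Gsta2 (3.32 against 3.44, 0.738). Mouse 3 of 12 weeks was the highest of its age for Gstm1 (9.78 against 8.93, 0.833 of the range), Ces1d (9.84 against 9.46, 0.803) and Gstp1 (11.48 against 11.14, 0.778). The other cases were mouse 1 of 12 weeks for Ces2f (highest, 0.834), mouse 2 of 16 weeks for Ugt3a2 (highest, 0.823), mouse 5 of 20 weeks for Gsta2 (highest, 0.772), mouse 3 of 4 weeks for Ugt3a2 (highest, 0.76) and mouse 2 of 4 weeks for Sult1a1 (lowest, 0.722).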

How the results depend on the processing

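The calls of Sult1c1, Gsto1 and Ces1e at 12 weeks, of Gsto1 and Ces1e at 16 weeks and of Ces1e at 20 weeks held under all 7 other settings and without each array in turn. Other calls did not. Gsta4 at 12 weeks lost its call under quantile normalization, the replicate block, either covariate and without any of 14 arrays, Gstk1 with the upper quartile as a covariate, Ces1e at 8 weeks under quantile normalization and either covariate, and Sult1c1 with the parotid score at 8 and 16 weeks and with the upper quartile at 8 weeks. The call of Sult1c1 was kept without 17 of 25 arrays at 8 weeks and without 13 at 16 weeks, and that of Gsto1 at 8 weeks was lost without mouse 3 or mouse 4 of 4 weeks. The causes were not tested.

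Of the alternative settings, shares of all genes were computed only without mouse 3 of 20 weeks. The counts below have no such share beside them and cannot be read as results about the members. Array weights, which gave mouse 3 of 20 weeks a weight of 0.0163, called 6, 13, 6 and 7 members as higher and 6, 25, 7 and 18 as lower at 8, 12, 16 and 20 weeks, 22 in the F-test, 9 by the B-statistic and 11 between neighbouring ages. Quantile normalization gave 2, 5, 4 and 3 higher, 1 lower at each age and 6 in the F-test. The upper quartile as a covariate gave 1, 4, 4 and 4 higher, 1, 0, 1 and 1 lower and 5 in the F-test, and the parotid score as a covariate left 1 member by the B-statistic. With a prior share of 0.05 the B-statistic called 3. The replicate block gave 4, 6, 3 and 1 higher and 0 lower members, and 5 of 25 arrays had their best match at another age in an array of the same number.

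With 1 array left out, 0 to 6 members were higher at 8 weeks, 3 to 11 at 12 weeks, 2 to 5 at 16 weeks and 1 to 7 at 20 weeks. As lower there were 0 to 1 at 8, 12 and 16 weeks. The F-test gave 1 to 11, the B-statistic 0 to 7 and the neighbouring ages 0 to 1. The highest counts came without mouse 3 of 20 weeks. At 8 weeks the count was 0 without mouse 3 or mouse 4 of 4 weeks and 1 without mouse 2 of 4 weeks or mouse 3, 4 or 5 of 8 weeks, and at 12 weeks it was 3 without mouse 4 of 4 weeks or mouse 2 of 12 weeks. At 20 weeks it was 4 without mouse 1 of 4 weeks and 2 without mouse 5 of 16 weeks. At 12 weeks 1 member was lower without mouse 1 of 4 weeks. Without mouse 3 of 4 weeks 1 member passed the F-test and 0 the B-statistic, and 17 of the other arrays left 1 member by the B-statistic when left out.

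In 14 members that did not pass at 20 weeks, array weights turned a small difference into a decrease that passed: Ces1f (-0.074), Ces1g (-0.079), Gsto2 (-0.050), Gstt4 (-0.045), Sult1b1 (-0.088), Sult1d1 (-0.11), Sult3a1 (-0.092), Sult6b1 (-0.34), Ugt2a3 (-0.042), Ugt2b1 (-0.046), Ugt2b36 (-0.13), Ugt2b37 (-0.077), Ugt2b5 (-0.061) and Ugt3a2 (-0.14), of which Sult1d1, Sult6b1 and Ugt2b36 are expressed.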

Other observations

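The probe sets that the annotation gives to several genes of these families stood outside the comparisons. The 3 probe sets shared by 8 Ugt1a genes, which glucuronidate bilirubin and many drugs, had means of 7.56, 6.39 and 5.39 over all arrays, above the limit for an expressed probe set. Their log2 fold changes at 12 weeks were 0.42, 1.03 and -0.05, and none passed at any age (lowest adjusted p = 0.488). A probe set shared by Gsta1, Gsta2 and Gm3776 had a mean of 4.32 and a log2 fold change of 0.08 at 12 weeks. Those shared by Ces3a and Ces3b and by Ugt2a1 and Ugt2a2 had means of 2.39 and 2.41, below the limit.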
